A study of Capra hircus with 6 samples.

Results

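Glucose uptake, glycolysis and oxygen-responsive transcripts were examined in whole ovaries of 6 goats (Capra hircus). The genes came from a list of 39 entries chosen by function: glucose transporters, glycolytic enzymes, genes that steer pyruvate and lactate, and targets of hypoxia-inducible factor. Of these, 36 were found among the 17504 genes of the deposited tables, and PFKL, P4HA2 and MIF were not analysed here. The animals were 3 goats of the Tibetan breed, which the labels term non-prolific, and 3 Jintang black goats, termed prolific, and all were in the follicular phase of the cycle when sampled. Neither age nor housing is given in the labels, no animal is described as treated, and each library came from the ovary of 1 goat. The unit is FPKM, a fragment number divided by transcript length and by the mapped fragments of the library, which allows levels of different genes to be compared per length within a library.

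Glucose enters cells through transporters of the SLC2A (GLUT) family and is trapped by hexokinase. Glycolysis then splits it into pyruvate, which lactate dehydrogenase converts to lactate or which pyruvate dehydrogenase passes to the mitochondria. In the ovary, granulosa and cumulus cells are known to supply the oocyte with pyruvate and lactate, since the oocyte itself uses glucose poorly, and the forming corpus luteum is a tissue with high demand for glucose. When oxygen is scarce, hypoxia-inducible factor is stabilised and raises the transcription of SLC2A1, many glycolytic enzymes, PDK1 and genes such as ADM, BNIP3 and CA9.

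The libraries summed to between 602255 and 682801 FPKM, and their absolute depth is unknown. All 36 genes passed the expression filter (1 FPKM or more in 3 or more libraries), which kept 13067 genes for testing. Markers of steroidogenic (STAR, 3BHSD), granulosa (FSHR), endothelial (PECAM1) and smooth muscle cells (ACTA2) were detected (FSHR is listed at 0 in Tibetan 1), while the 3 matched erythrocyte markers (ALAS2, AHSP and SLC4A1) stayed under 1 FPKM in all 6 ovaries. These are bulk samples, so a lower number of cells of a type and less RNA per cell cannot be told apart. A positive log2 fold change means a higher Jintang mean. It is taken on log2(FPKM + 1) values, where changes of low genes appear smaller than they are. Errors are SD over n = 3 goats per breed.

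No glycolytic gene passed the test between breeds, and both breeds held ovaries with high and with low glycolytic transcripts. The 15 glycolytic enzymes and regulators from HK1 to PKM summed to 1813, 1547 and 3769 FPKM (Tibetan 1 to 3) and 3218, 3834 and 1668 FPKM (Jintang 1 to 3). Tibetan 3, Jintang 1 and Jintang 2 therefore stood apart as the high ovaries, and the breeds overlapped. These 3 ovaries held the 3 highest values of 10 of the 15 genes and of 15 of all 36 genes (41.7%), where 10.6% of the genes tested showed this order. This grouping was noticed in the values and is given as a description, without a test. The ratio of the highest to the lowest ovary was above 3 in 20 of the 36 genes (55.6%) and in 37% of the genes tested, with a median ratio of 3.05 for the 36 genes and 2.46 for the genes tested.

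**Figure D1:**
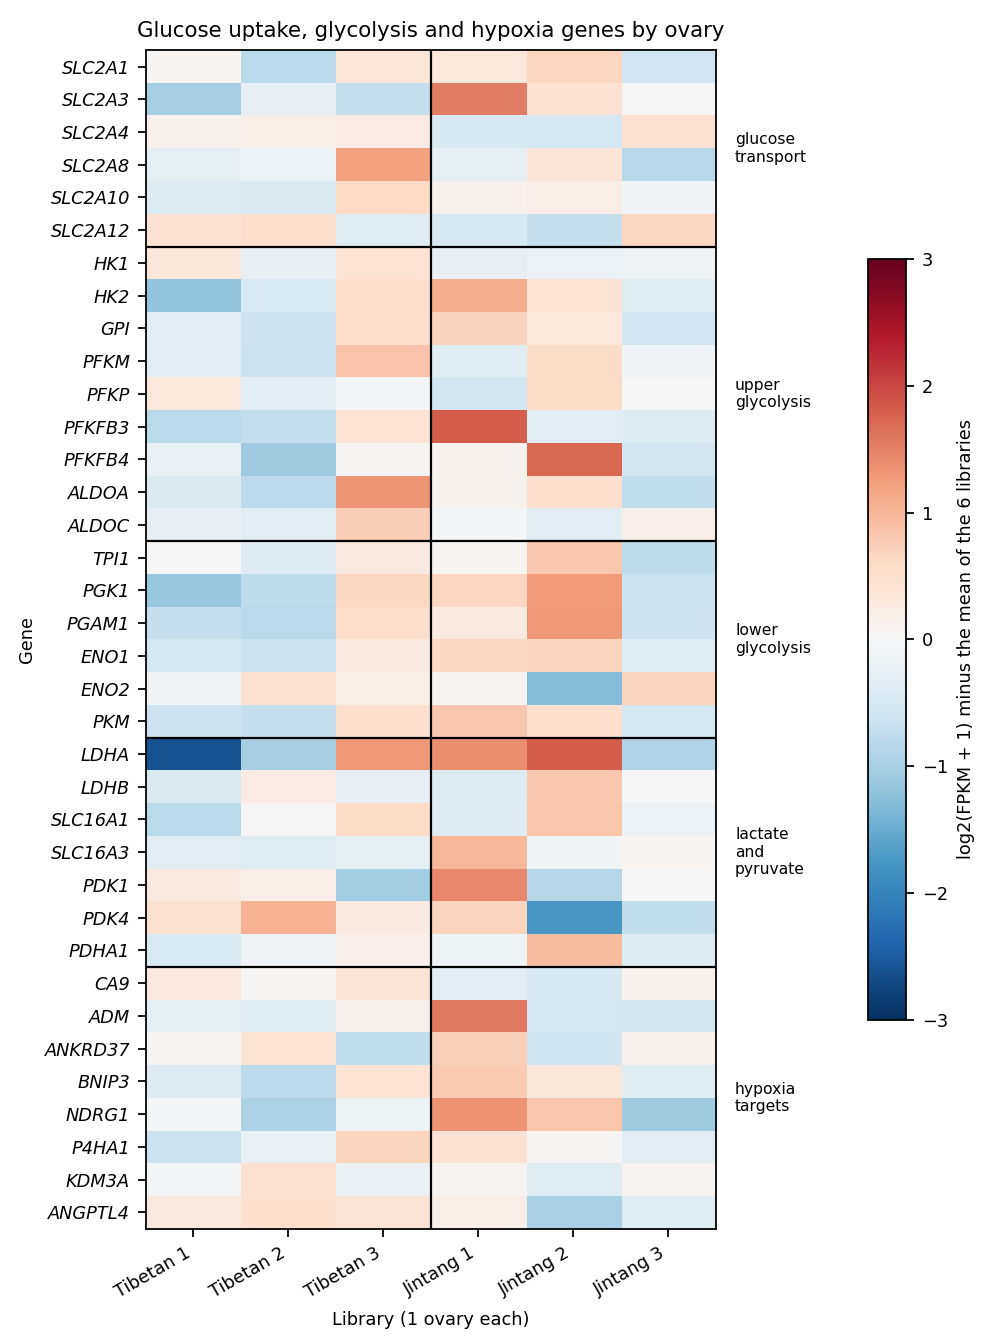
Heat map of 36 genes (rows, grouped by role) in 6 ovaries (columns). Colour gives log2(FPKM + 1) minus the mean of the 6 libraries for that gene. Most rows of the glycolysis blocks are red in Tibetan 3, Jintang 1 and Jintang 2 and blue in the other ovaries, whereas ENO2, PDK4 and ANGPTL4 are at their lowest in Jintang 2.

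Of the marker sums, that of luteal and steroidogenic cells had the same 3 highest ovaries. Its 9 matched markers summed to 405, 649 and 3221 FPKM (Tibetan 1 to 3) and 6560.0, 24414 and 588 FPKM (Jintang 1 to 3). In Jintang 1 most of this sum was TIMP1, a metalloproteinase inhibitor, with 5304 FPKM. STAR, which carries cholesterol into mitochondria, stood at 139 FPKM in both Jintang 1 and Tibetan 3. The steroid dehydrogenase 3BHSD stood at 105 FPKM in Jintang 1 against 482 FPKM in Tibetan 3. CYP11A1, SCARB1, FDX1 and LHCGR were also lower in Jintang 1 than in Tibetan 3. PTGFR (274 against 9.23 FPKM) and PRLR (53.4 against 2.03 FPKM) were higher in Jintang 1, as was TIMP1. All 9 markers had a positive log2 fold change and 0 passed the test. Macrophage markers (9 matched, 9 positive, 0 passed) summed to 84.9, 283 and 165 FPKM (Tibetan 1 to 3) and 1420.1, 164 and 344 FPKM (Jintang 1 to 3), with only Jintang 1 of the 3 ovaries standing high. The 5 mitosis markers (5 positive, 0 passed) summed to 5.11, 31.8 and 19.1 FPKM (Tibetan 1 to 3) and 20.7, 137 and 36.9 FPKM (Jintang 1 to 3), highest in Jintang 2. The 9 endothelial markers (7 positive, 0 passed) were highest in Jintang 1 and 2 at 419 and 369 FPKM and lowest in Tibetan 3 at 188 FPKM. The 6 smooth muscle markers (0 positive, 0 passed) were lowest in Jintang 1 and 2 at 3655 and 2009 FPKM and stood at 5707 FPKM in Tibetan 3, between the 4044 FPKM of Tibetan 2 and the 8086 FPKM of Tibetan 1. The part of these cell types in the results below was not tested.

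The remaining marker lists had orders of their own. The sum of granulosa markers (8 matched, 4 positive) was highest in Tibetan 3 at 1256 FPKM and elsewhere from 165 to 409 FPKM. INHA gave 1194 FPKM of the Tibetan 3 sum. CYP19A1 was also highest in that ovary, whereas INHBA, FOXL2 and HSD17B1 had their lowest values there. FSHR, AMH and GATM peaked in other ovaries, so the high granulosa sum of Tibetan 3 mainly follows INHA. The sum of the 2 matched theca markers was also highest in Tibetan 3 at 722 FPKM, with 5.55 FPKM in Jintang 1 and 6.57 FPKM in Jintang 2. CYP17A1 gave 719 FPKM of the Tibetan 3 sum, while PTCH1 stood there at 3.47 FPKM and was highest in Jintang 3 (9.69 FPKM). Surface epithelium markers (4 matched) summed to 252 FPKM in Jintang 2 and 129 FPKM in Tibetan 3 and stayed between 12.8 and 18.1 FPKM elsewhere. KRT18 gave 243 FPKM of the Jintang 2 sum, and KRT18 (63.6 FPKM) and MSLN (54.5 FPKM) most of the Tibetan 3 sum. KRT7 was lower in every Jintang ovary than in any Tibetan ovary and was highest in Tibetan 3 (10.7 FPKM). The Jintang 2 sum thus mainly follows KRT18, and the Tibetan 3 sum follows KRT18 and MSLN. Oocyte markers (5 matched) lay between 0.85 and 17.9 FPKM, and the 3 matched adipocyte markers between 0.85 and 1.44 FPKM. No marker of these lists that was tested passed. The filter left 0 of the adipocyte markers, 3 of the 5 oocyte markers and 3 of the 4 surface epithelium markers for testing.

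Among the glucose transporters, SLC2A3 (GLUT3, a high-affinity transporter; GeneID 100860892) was the member whose breeds were furthest apart relative to their spread. It measured 7.77, 13.6 and 9.56 FPKM (Tibetan 1 to 3) and 49.4, 22.5 and 16.5 FPKM (Jintang 1 to 3). Each Jintang ovary exceeded the highest Tibetan value, and Jintang 1 was the highest. The means were 10.3 ± 2.98 and 29.5 ± 17.5 FPKM, with a log2 fold change of 1.31 (SE 0.42, 95% interval 0.35 to 2.28). The unadjusted limma p was 0.0138 and the adjusted p 0.743, so the difference did not pass.

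SLC2A1 (GLUT1, the widespread basal transporter; GeneID 102174800) was the most abundant of the 6 transporters per length in every ovary but Tibetan 3, at 46.1, 24.9 and 57.6 FPKM in the Tibetan and 55.0, 70.0 and 29.6 FPKM in the Jintang ovaries. The breeds overlapped, with the lowest values in Tibetan 2 and Jintang 3. SLC2A8, an intracellular transporter, stood at 20.1, 21.9 and 59.1 FPKM against 20.3, 33.0 and 13.5 FPKM and was highest in Tibetan 3. SLC2A4, the insulin-regulated transporter of muscle and fat, stayed between 1.04 and 3.05 FPKM in all ovaries. SLC2A10 lay between 2.73 and 6.58 FPKM, and SLC2A12 between 0.36 and 2.40 FPKM. Of the 6 transporters 3 had a positive and 3 a negative log2 fold change (median -0.11), and 0 passed the test (adjusted p from 0.743 to 0.921).

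Among the genes of the upper part of glycolysis that were analysed, HK1, GPI, PFKP and ALDOA had the highest mean FPKM. HK1, the constitutive hexokinase (GeneID 102190759), was the steadiest of the 36 genes: it stood at 130, 86.1 and 134 FPKM (Tibetan 1 to 3) and 85.1, 90.3 and 95.1 FPKM (Jintang 1 to 3). Its highest ovary exceeded its lowest by a ratio of 1.58, and its log2 fold change was -0.34 (SE 0.28, adjusted p = 0.785). HK2, the inducible hexokinase, was much lower, at 0.91, 2.19 and 5.25 FPKM against 8.26, 4.81 and 2.40 FPKM, with the 3 highest values in Jintang 1, Tibetan 3 and Jintang 2. GPI, which converts glucose 6-phosphate to fructose 6-phosphate, averaged 171 ± 75.6 and 209 ± 83.7 FPKM, and its lowest values, 115 and 119 FPKM, were those of Tibetan 2 and Jintang 3.

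Phosphofructokinase, the committing step of glycolysis, is described by the muscle and platelet isoforms only, since PFKL was not analysed here. The means of the Tibetan and Jintang breeds were 39.9 ± 9.45 and 42.1 ± 16.6 FPKM for PFKP and 20.3 ± 12.5 and 19.7 ± 6.93 FPKM for PFKM. Both log2 fold changes were close to 0 (0.026 and 0.063), with 95% intervals from -0.78 to 0.83 for PFKP and from -0.94 to 1.07 for PFKM, so differences of up to about those sizes cannot be told from none. Both signs turned negative without Tibetan 2 and without Jintang 2, and that of PFKM also without Tibetan 1.

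The bifunctional enzymes that set the level of fructose 2,6-bisphosphate, the main activator of phosphofructokinase, peaked in different ovaries. PFKFB3 (GeneID 102170613) stood at 4.46, 4.89 and 11.8 FPKM (Tibetan 1 to 3) and 32.7, 6.70 and 6.34 FPKM (Jintang 1 to 3), so that Jintang 1 alone was far above the rest. PFKFB4 (GeneID 102188810) stood at 15.0, 7.91 and 18.0 FPKM against 19.0, 60.9 and 11.7 FPKM, and its high ovary was Jintang 2. The log2 fold changes, 0.74 (SE 0.62) and 0.84 (SE 0.58), did not pass (adjusted p = 0.788 and 0.758). Without Jintang 1 that of PFKFB3 was 0.016, and without Jintang 2 that of PFKFB4 was 0.19.

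Aldolase transcripts were dominated by ALDOA (GeneID 102187016), the muscle and general isoform, at 375, 296 and 1267 FPKM in the Tibetan and 549.8, 720.1 and 305 FPKM in the Jintang ovaries. Tibetan 3 was the highest by a wide margin, and the breed means, 646 ± 539 and 525 ± 209 FPKM, differed by less than their spread. Tibetan 3 also had 366 FPKM of the skeletal muscle actin ACTA1, against 6.06 to 14.0 FPKM in the remaining ovaries, while the muscle creatine kinase CKM stood there at 3.19 FPKM within a range of 0.10 to 7.16 FPKM, and MYL1 stayed under 1 FPKM in all ovaries. The log2 fold change of ALDOA was -0.073 (SE 0.60, adjusted p = 0.980), and turned positive with median-ratio scaling (0.055), without Tibetan 3 (0.57) and without Jintang 3 (0.27). ALDOC, the brain isoform, stayed between 5.65 and 12.9 FPKM. Of the 9 genes of the upper part, 6 had a positive and 3 a negative log2 fold change (median 0.063), and 0 passed.

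The lower part of glycolysis, from triose phosphate to pyruvate, showed the common order most clearly: in 5 of its 6 genes the 3 highest values were those of Tibetan 3, Jintang 1 and Jintang 2. PGK1 (GeneID 102185725), the first ATP-producing enzyme of the pathway, stood at 64.4, 84.9 and 221 FPKM (Tibetan 1 to 3) and 226, 351 and 90.8 FPKM (Jintang 1 to 3). Jintang 3 therefore lay next to Tibetan 2 and below Tibetan 3. Phosphoglycerate mutase PGAM1 followed at 113, 104 and 265 FPKM against 221, 448 and 119 FPKM, with the highest value again in Jintang 2.

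The abundant enolase ENO1 (GeneID 102175881) stood at 350.2, 324 and 611 FPKM against 773, 799 and 391 FPKM. Pyruvate kinase PKM, which forms pyruvate, stood at 240, 227 and 519.6 FPKM against 649, 524 and 260 FPKM. In both genes Jintang 1 and 2 lay above every Tibetan ovary and Jintang 3 lay within the Tibetan range. Triose phosphate isomerase TPI1 stood at 289, 218 and 348 FPKM against 297, 507 and 168 FPKM, the lowest value being that of Jintang 3.

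ENO2, the neuronal enolase, ran against this order at 20.0, 29.8 and 24.5 FPKM in the Tibetan and 22.8, 8.19 and 34.8 FPKM in the Jintang ovaries: its highest value was in Jintang 3 and its lowest in Jintang 2. The log2 fold changes of the lower part were 0.85 (PGK1, SE 0.60), 0.64 (PGAM1, SE 0.55), 0.60 (ENO1, SE 0.43), 0.55 (PKM, SE 0.48), 0.069 (TPI1, SE 0.44) and -0.36 (ENO2, SE 0.48). The median was 0.57, 5 of the 6 were positive, and 0 passed (limma adjusted p from 0.760 to 0.972). Leaving out 1 ovary at a time moved 4 of these by more than 1.5 times with the sign kept: PGK1 from 0.42 (without Jintang 2) to 1.39 (without Jintang 3), PGAM1 from 0.15 to 1.10 and ENO1 from 0.42 to 0.93 (without the same ovaries), and PKM from 0.27 (without Jintang 1) to 0.93 (without Jintang 3). Without Jintang 2 the signs of TPI1 (-0.32) and ENO2 (0.20) were turned, and that of TPI1 also without Tibetan 2 (-0.11). Mammalian genomes carry processed copies of many glycolytic genes, so reads may be shared with such copies and the absolute levels are uncertain to that extent.

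Lactate dehydrogenase A was the most variable of the 36 genes. LDHA (listed as LDH-A, GeneID 100860870), the subunit that favours lactate formation, stood at 10.9, 35.1 and 178 FPKM (Tibetan 1 to 3) and 188, 255 and 37.7 FPKM (Jintang 1 to 3). Its highest ovary, Jintang 2, exceeded its lowest, Tibetan 1, by a ratio of 23.4, and Jintang 3 and Tibetan 3 placed each breed in the range of the other. The log2 fold change was 1.53 (SE 1.02, 95% interval -0.81 to 3.88, limma adjusted p = 0.758), and it was 0.62 without Tibetan 1 and 2.57 without Tibetan 3. LDHB (GeneID 102188750), the subunit of oxidative tissues, was higher than LDHA in every ovary, at 249, 398 and 285 FPKM against 253, 591 and 341 FPKM, and varied over a ratio of 2.37.

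The monocarboxylate transporters carry lactate and pyruvate across the cell membrane. SLC16A3 (MCT4, the exporter of glycolytic cells; GeneID 102177468) was low, at 3.41, 3.32 and 3.59 FPKM (Tibetan 1 to 3) and 10.1, 4.25 and 4.80 FPKM (Jintang 1 to 3). All 3 Jintang ovaries lay above the narrow Tibetan range, and Jintang 1 was the highest. The log2 fold change was 0.65 (SE 0.35, unadjusted p = 0.10, adjusted p = 0.743), and it was 0.31 without Jintang 1. SLC16A1 (MCT1) was at 8.63, 16.0 and 24.2 FPKM against 12.0, 29.2 and 14.0 FPKM, with overlapping breeds.

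Pyruvate dehydrogenase kinases switch off the entry of pyruvate into the mitochondria. PDK4 (GeneID 102190015), the isoform linked to fasting and fatty acid use, stood at 62.8, 95.2 and 54.9 FPKM (Tibetan 1 to 3) and 73.2, 12.9 and 27.0 FPKM (Jintang 1 to 3). Jintang 2 and 3 lay below every Tibetan ovary, and Jintang 1 within their range. The log2 fold change was -1.19 (SE 0.57, 95% interval -2.49 to 0.11, unadjusted p = 0.0681, limma adjusted p = 0.743), running from -1.83 without Jintang 1 to -0.62 without Jintang 2. PDK1, the hypoxia-responsive isoform, stood at 12.1, 11.5 and 4.23 FPKM against 28.3, 5.03 and 9.68 FPKM, with the highest value in Jintang 1.

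PDHA1, the catalytic subunit of pyruvate dehydrogenase on which these kinases act, averaged 19.9 ± 4.39 and 26.1 ± 14.3 FPKM and was highest in Jintang 2 (42.5 FPKM). Across the 7 genes of lactate and pyruvate handling, 6 log2 fold changes were positive and 1, that of PDK4, was negative (median 0.28), and 0 passed the test. Without Jintang 2 those of LDHB (-0.051), SLC16A1 (-0.20) and PDHA1 (-0.13) were negative, as was that of PDK1 without Jintang 1 (-0.24). Leaving out a Tibetan ovary also turned 2 of these signs, that of SLC16A1 without Tibetan 1 and that of PDK1 without Tibetan 3.

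**Figure D2:**
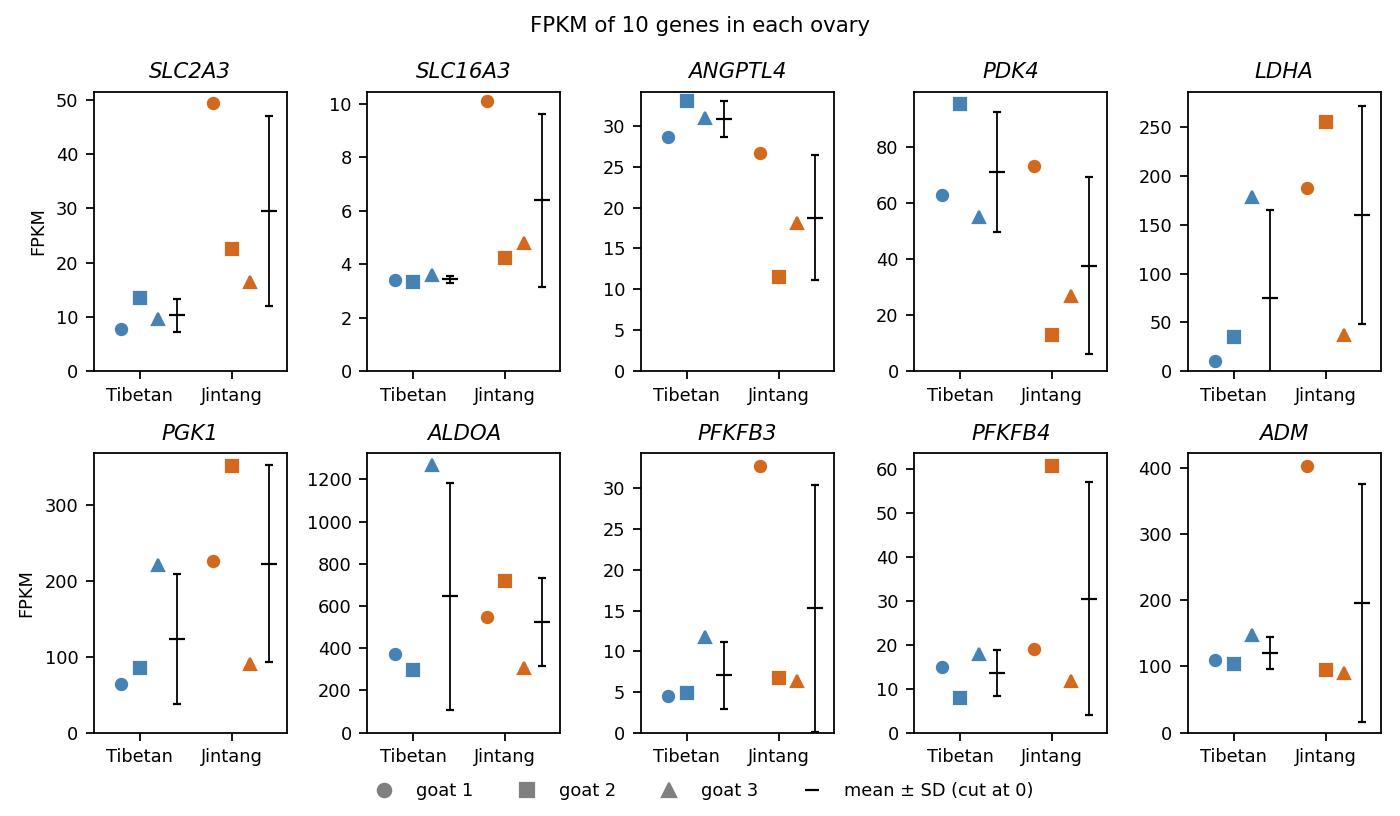
FPKM (linear axis from 0) of 10 genes in the 3 Tibetan (blue) and 3 Jintang (orange) ovaries; marker shape gives the goat number and the bar is the mean ± SD, cut at 0 where it would go below. The breeds do not overlap for SLC2A3, SLC16A3 and ANGPTL4, whereas LDHA, PGK1 and ALDOA each have a high Tibetan 3 and a low Jintang 3.

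The targets of hypoxia-inducible factor did not move as 1 group. The peak value of 4 of the 8 genes was in Jintang 1 (12.6% of the genes tested peaked there), that of 2 each in Tibetan 2 (18.4%) and Tibetan 3 (18%), and that of 0 in Jintang 2 (20.5%), which had the highest LDHA and PGK1. ADM (GeneID 102178091), the vasodilator peptide adrenomedullin, stood at 109, 103 and 148 FPKM (Tibetan 1 to 3) and 403, 94.5 and 90.4 FPKM (Jintang 1 to 3). Only Jintang 1 was high, and without it the log2 fold change of 0.35 (SE 0.56, adjusted p = 0.892) became -0.36. NDRG1 (GeneID 102168471), a stress-responsive gene, stood at 61.4, 31.8 and 56.3 FPKM against 161, 112 and 29.5 FPKM, with Jintang 1 and 2 above and Jintang 3 below all Tibetan ovaries.

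BNIP3, which promotes the removal of mitochondria, stood at 27.2, 20.7 and 48.5 FPKM against 63.1, 45.6 and 27.9 FPKM, and so had the same 3 high ovaries as the glycolytic enzymes. P4HA1, a collagen prolyl hydroxylase subunit, did as well, at 14.5, 20.1 and 37.3 FPKM against 31.6, 23.9 and 18.1 FPKM. The histone demethylase KDM3A varied little, between 9.43 and 17.4 FPKM.

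The tumour-associated carbonic anhydrase CA9, a gene that is usually silent at normal oxygen, stayed between 1.49 and 3.54 FPKM, and ANKRD37 between 0.73 and 3.73 FPKM. Per length, 91.9% and 88.9% of the genes tested had a higher mean than ANKRD37 and CA9, respectively, while 3.78% had a higher mean than ADM.

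ANGPTL4 (GeneID 100860916), an inhibitor of lipoprotein lipase that also responds to fatty acid receptors, was the member whose Jintang values all lay below the Tibetan values. It stood at 28.6, 33.0 and 31.0 FPKM (Tibetan 1 to 3) and 26.7, 11.5 and 18.1 FPKM (Jintang 1 to 3). The gap between the breeds was small, 26.7 against 28.6 FPKM at its nearest. The means were 30.8 ± 2.20 and 18.8 ± 7.64 FPKM, with a log2 fold change of -0.76 (SE 0.33, unadjusted p = 0.0486, limma adjusted p = 0.743). Across the 8 targets, 5 log2 fold changes were positive and 3 negative (median 0.13), and 0 passed.

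Over all 36 genes, 0 differed between the breeds at an adjusted limma p under 0.05, as did 0% of the 13067 genes tested, and the smallest adjusted p among the 36 was 0.743. At an unadjusted p under 0.05 there were 2 (SLC2A3 higher and ANGPTL4 lower in Jintang ovaries, 5.56%), beside 6.17% of the genes tested. No overlap between the breeds was seen in 3 genes (SLC2A3, SLC16A3 and ANGPTL4, 8.33%), beside 9.9% of the genes tested. Both shares are near the background and are no result about these genes as a set.

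The log2 fold change was positive in 25 of the 36 genes (69.4%) and in 41% of the genes tested, with medians of 0.21 and -0.096. Under median-ratio scaling, where the median of the genes tested was 0.017, 26 of the 36 were positive, beside 51.9% of the genes tested, and their median was 0.34. The median of the 36 genes stayed positive with each library left out, from 0.096 without Jintang 1 to 0.49 without Tibetan 3. Without Jintang 2, 20 of the 36 genes were positive, beside 37.8% of the genes tested. Of the 36 signs, 16 turned under at least 1 alternative, all but that of ALDOA only when a library was left out.

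The number with an unadjusted p under 0.05 depended on the animals and on the processing. It was 1, SLC2A3, with median-ratio scaling, with TPM scaling, without the intensity trend and with the replicate block, so that ANGPTL4 missed that level in each of these fits. It was 5 without Jintang 3 (SLC2A3, PFKFB4, PGK1, LDHA and NDRG1, beside 14.3% of the genes tested) and 4 without Tibetan 3 (SLC2A3, HK2, PGK1 and LDHA, beside 7.79%). Without Jintang 1 it was 3 (SLC2A3, PDK4 and ANGPTL4, beside 2.69%), and without Tibetan 1, Tibetan 2 or Jintang 2 it was 1, SLC2A3. The adjusted test called 0 of the 36 in each of these fits. SLC2A3 had an unadjusted p under 0.05 in all 6 fits that leave out an ovary and in the 4 fits with other processing.

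**Figure D3:**
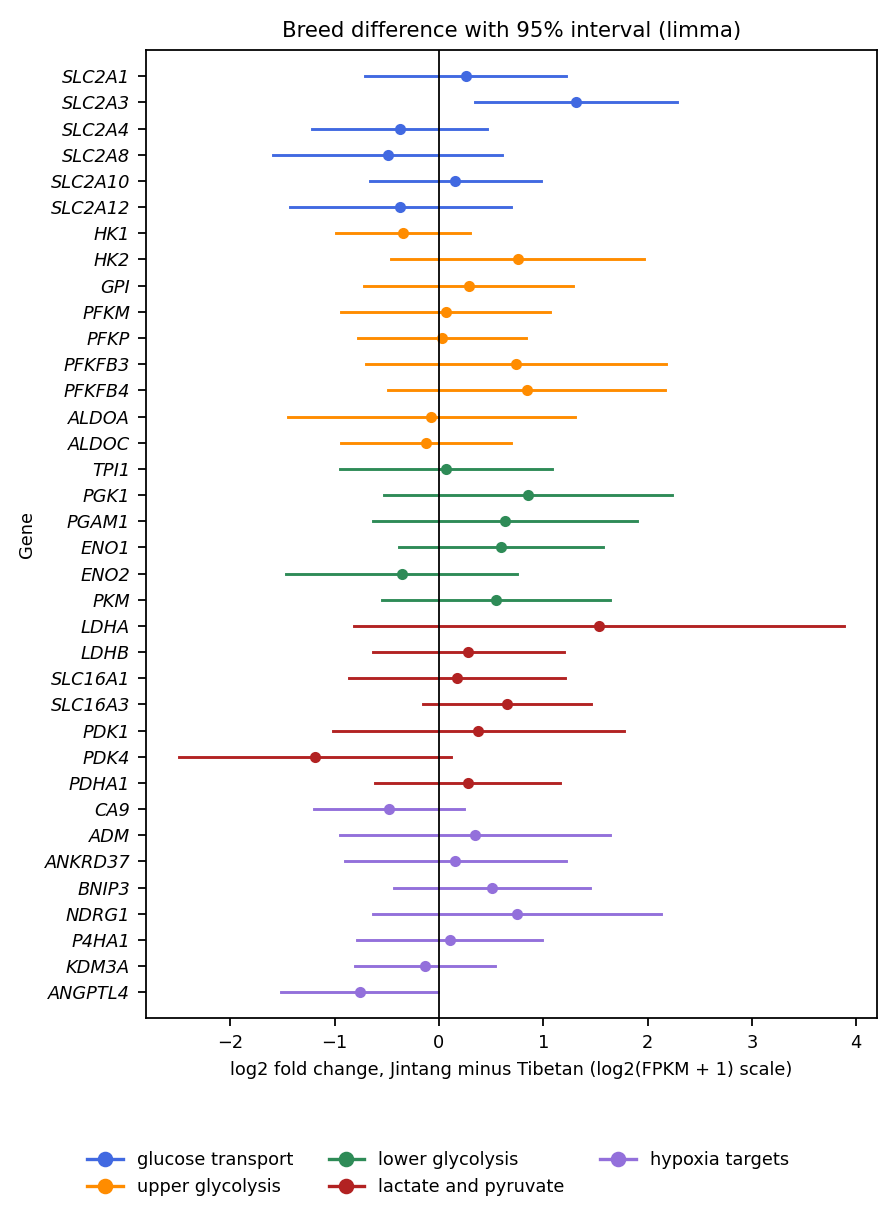
Log2 fold change (Jintang minus Tibetan, log2(FPKM + 1) scale) of 36 genes with its 95% interval from limma, coloured by role; 3 goats per breed. The intervals of SLC2A3 (0.35 to 2.28) and ANGPTL4 leave out 0 before adjustment, and that of LDHA is the widest.

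Ratios between related genes within a library do not depend on how the libraries are scaled, and 9 were compared. With 3 ovaries against 3 the exact permutation test cannot give a 2-sided p below 0.10, so none could pass. The ratio of PDK4 to PDK1 was the only 1 of the 9 without overlap: it was 5.19, 8.25 and 13.0 (Tibetan 1 to 3) and 2.58, 2.56 and 2.78 (Jintang 1 to 3). Among single genes, 9.9% of those tested had no overlap, so 1 of 9 is near that background and is no result about this pair. The 3 Jintang values lay close together although both kinases varied several-fold between these ovaries. The mean log2 ratio was 3.02 ± 0.65 in Tibetan and 1.39 ± 0.067 in Jintang ovaries (difference -1.63, exact permutation p = 0.10, adjusted over the 9 ratios p = 0.72, n = 3 per breed).

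The balance of the lactate dehydrogenase subunits differed between animals. LDHA made up 4.19%, 8.11% and 38.5% of the summed FPKM of LDHA and LDHB in Tibetan 1, 2 and 3 and 42.6%, 30.2% and 9.94% in Jintang 1, 2 and 3. The 3 ovaries with high glycolytic enzymes had the larger LDHA shares, and the breeds overlapped (difference of mean log2 ratio 1.29, exact permutation p = 0.40). HK2 made up between 0.697% and 3.76% of hexokinase FPKM (HK1 and HK2) in Tibetan ovaries and 8.85%, 5.06% and 2.46% in Jintang 1, 2 and 3 (difference of mean log2 ratio 1.36, exact permutation p = 0.30).

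Among the main transporters, SLC2A1 exceeded SLC2A3 by ratios of 5.93, 1.84 and 6.03 (Tibetan 1 to 3) and 1.11, 3.12 and 1.79 (Jintang 1 to 3). The transporters were thus nearly level in Jintang 1, and the breeds overlapped (difference of mean log2 ratio -1.13, exact permutation p = 0.20). PFKFB3 exceeded PFKFB4 in Jintang 1 only, by a ratio of 1.73, and stood at 0.11 of its level in Jintang 2. ENO2 made up between 1.01% (Jintang 2) and 8.43% (Tibetan 2) of enolase FPKM (ENO1 and ENO2), and ALDOC between 0.785% and 2.61% of aldolase FPKM (ALDOA and ALDOC). The differences between breeds in the ratios of ENO2 to ENO1 (-0.99), ALDOC to ALDOA (-0.057), PFKP to PFKM (-0.045), PFKFB3 to PFKFB4 (-0.077) and SLC16A3 to SLC16A1 (0.58) had exact permutation p-values from 0.40 to 1.00.

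**Figure D4:**
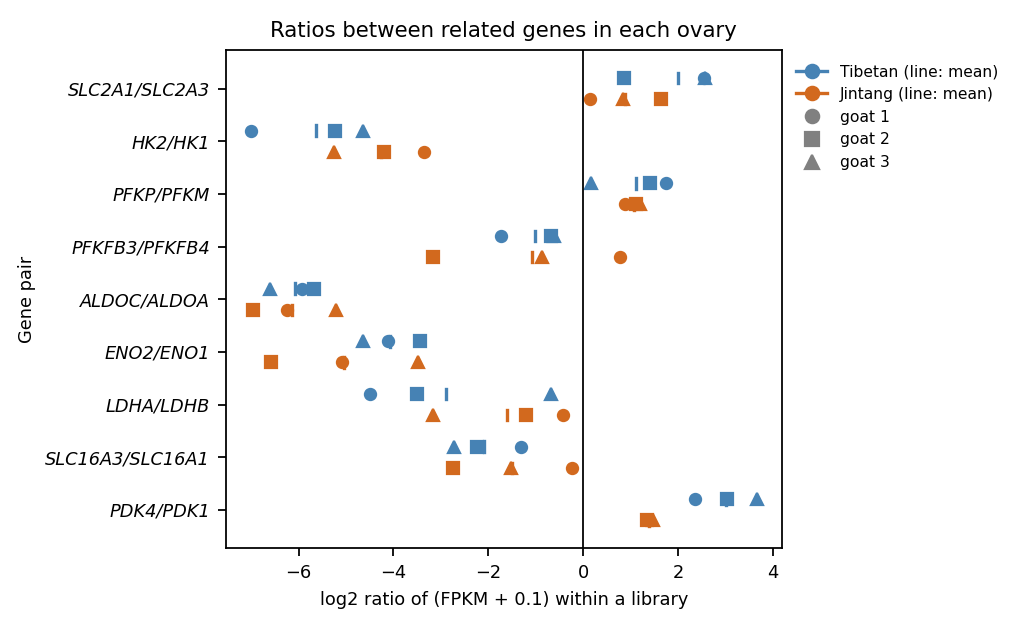
Log2 ratio of (FPKM + 0.1) of 9 gene pairs within each ovary (blue Tibetan, orange Jintang, marker shape for the goat number, vertical line for the breed mean). The Jintang points of PDK4/PDK1 lie together between 1.34 and 1.47, below the 3 Tibetan points, and LDHA/LDHB spans from -4.50 to -0.43.

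Other genes of the same pathways were taken from a fixed list, of which 74 entries were found and 65 tested. Of these, 36 log2 fold changes were positive and 29 negative (median 0.095), and 0 passed the adjusted test in either direction. An unadjusted limma p under 0.05 was seen in 4 (6.15%), beside 6.17% of the genes tested. This share is near the background and is no result about these genes as a set. All 4 were higher in Jintang ovaries, beside 2.82% of the genes tested in that direction. Tibetan 3, Jintang 1 and Jintang 2 held the 3 highest values of 18 of the 65 genes (27.7%), beside 10.6% of the genes tested. GAPDH, the glycolytic enzyme between aldolase and PGK1, was 1 of these, at 1050.5, 850.2 and 2103 FPKM (Tibetan 1 to 3) and 1926, 2372 and 1126 FPKM (Jintang 1 to 3). TXNIP, an inhibitor of glucose uptake, ran in the reverse order, at 807, 862 and 387 FPKM against 309, 218 and 596 FPKM. Its 3 lowest values were those of Jintang 2, Jintang 1 and Tibetan 3, the ovaries with the most glycolytic transcripts (log2 fold change -0.91, SE 0.49, limma adjusted p = 0.743). The share of the genes tested with this reverse order was not counted.

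The oxygen-sensing genes themselves overlapped between the breeds. HIF1A, the regulated subunit of hypoxia-inducible factor, stood at 34.7, 64.1 and 87.0 FPKM against 68.6, 198 and 65.6 FPKM and was highest in Jintang 2. Its transcript level does not measure the protein, which is controlled mainly by breakdown. EPAS1, the other main alpha subunit, averaged 100.2 ± 32.3 and 83.2 ± 18.4 FPKM. EGLN3, an oxygen sensor that is itself induced by hypoxia, reached 9.63 FPKM in Jintang 1, with 3.79 FPKM as the highest value elsewhere, and so peaked in the same ovary as ADM and PFKFB3. VEGFA, the angiogenic target, was highest in Tibetan 3 (47.5 FPKM) and Jintang 2 (44.7 FPKM) and did not exceed 18.3 FPKM elsewhere.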

How the data were processed

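Total RNA of each ovary was extracted with TRIzol and a cDNA library was built from it with NEBNext reagents, per the labels' protocols. The authors deposited 1 table of FPKM values per goat. Tools named in the submitters' processing notes, with no role given, are RSEM 1.2.0, TopHat2 2.0.10 and Bowtie2 2.1.0. No source used here states the build, annotation or strand, and genome coordinates are left out. A second table with the same samples was not used. FPKM is relative within a library, so very abundant genes can lower the others.

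Of 17504 GeneIDs, 16457 were given a symbol from RefSeq (ARS1.2). LDHA was found as LDH-A. Genes at 1 FPKM or more in 3 or more libraries were fitted with limma 3.58.1 (R 4.3.3; lmFit, eBayes with trend) on log2(FPKM + 1), breed as the only term, 2-sided, with Benjamini-Hochberg adjustment over 13067 genes. The p-values measure the spread between 3 goats per breed. Ratios used FPKM + 0.1 and an exact permutation test. The fit was tested on simulated data with spreads taken from these values. It recovered 10% of log2 changes of 1, 64% of 2, 94% of 3 and 92% of 4 (50 genes each). The changed genes were drawn from the better expressed genes, and the lower ones among them were raised first. These shares therefore do not cover genes of low FPKM, such as CA9, ANKRD37 and SLC2A12. The adjustment also depends on how many genes change, so recovery in the real data may be lower. There were 7 false calls among 12867 unchanged genes. A gene that did not pass may therefore still differ between the breeds, above all by a log2 change of 1 or less or where its level is low. Members, pathway genes and marker lists were chosen with earlier results of these data known. The text names each member, part of the pathway genes and the defining markers. Alternatives were other pseudocounts, filters and scalings, no trend, a replicate block and leaving out each library. Figures used Python 3.11.15 and matplotlib 3.10.9.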

Additional observations from a re-analysis of the deposited data

How the results depend on the processing

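No alternative called any of the 36 genes at an adjusted p under 0.05. Among all genes tested, between 0 and 13 were called with a library left out, the 13 without Jintang 3, and 0 under each other alternative. The median log2 fold change of the 36 genes ran from 0.096 to 0.49 with a library left out. The replicate block, run because both breeds carry goat numbers 1 to 3, called 0 genes, left 581 genes instead of 806 with an unadjusted p under 0.05, and gave a smallest adjusted p of 0.952 among the 36. Deviations of same-numbered ovaries correlated at -0.018, -0.21 and -0.47 across genes, and those of differently numbered ovaries from -0.34 to 0.45. Such correlations cannot show whether goats with the same number shared a batch, and the labels do not say so.

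Of the 36 log2 fold changes, 20 kept their sign under every alternative run and 16 did not, 15 of them with a library left out only. ALDOA was 0.0545 with median-ratio scaling and ran from -0.48 to 0.57 with a library left out. The other ranges with a library left out were SLC2A1 -0.0848 to 0.60, SLC2A10 -0.0188 to 0.49, PFKM -0.24 to 0.51, PFKP -0.26 to 0.31, ALDOC -0.31 to 0.22, TPI1 -0.32 to 0.47, ENO2 -0.78 to 0.20, LDHB -0.0514 to 0.56, SLC16A1 -0.20 to 0.50, PDK1 -0.24 to 0.90, PDHA1 -0.13 to 0.54, ADM -0.36 to 0.72, ANKRD37 -0.17 to 0.50, P4HA1 -0.19 to 0.46 and KDM3A -0.27 to 0.0605. Differences of log2 ratios that changed sign ran from -0.52 to 0.28 (PFKP/PFKM), -0.52 to 0.35 (ALDOC/ALDOA), -1.01 to 0.96 (PFKFB3/PFKFB4) and -0.0497 to 1.21 (SLC16A3/SLC16A1). Leaving out a library also leaves fewer samples in its breed. Ratios with PFKL and P4HA2 were not run, since those genes were not analysed here. A filter of 5 FPKM left 29 of the 36 genes. The depth of the libraries is unknown, so no counting error is given for any level.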

Other observations

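Transcripts of gluconeogenesis and pyruvate import, which are not among the 36 genes, are described here from the fixed pathway list. FBP1 and PCK1 had been planned for counts only and are named after their values were seen. FBP1, the fructose bisphosphatase that runs against phosphofructokinase, stood at 3.65, 2.09 and 207 FPKM (Tibetan 1 to 3) and 12.3, 28.9 and 2.86 FPKM (Jintang 1 to 3), and so was high in Tibetan 3. PCK1, the cytosolic carboxykinase, was at most 0.06 FPKM in any ovary, while its mitochondrial counterpart PCK2 stood at 2.97, 5.51 and 3.13 FPKM against 7.69, 12.1 and 7.43 FPKM, without overlap (log2 fold change 1.06, SE 0.33, unadjusted p = 0.0122, limma adjusted p = 0.743). The pyruvate carrier subunits MPC1 and MPC2 were highest in Jintang 2, at 141 and 90.0 FPKM, against at most 47.4 and 43.2 FPKM in the other ovaries.

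The 4 pathway genes with an unadjusted limma p under 0.05 were HK3, PCK2, LOX and STC2, and PCK2, LOX and STC2 are named after their values were seen. HK3, the hexokinase of myeloid cells, stood at 1.04, 2.27 and 4.59 FPKM (Tibetan 1 to 3) and 20.0, 6.10 and 4.13 FPKM (Jintang 1 to 3). Jintang 1 also had the highest sum of macrophage markers, and their part in this value was not tested. LOX, the collagen crosslinking enzyme, stood at 3.47, 3.69 and 5.43 FPKM against 16.1, 22.1 and 7.38 FPKM, without overlap (log2 fold change 1.54, SE 0.41, adjusted p = 0.743). PLIN2, a lipid droplet protein, reached 1663 FPKM in Jintang 1 against 46.8 to 103 FPKM elsewhere; it too is named after its values were seen.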
